A study of Mus musculus with 4 samples.

Results

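C-type lectin receptor genes and the related killer cell lectin-like (Klr) receptor genes were followed through 3 kinds of mouse cells. Members were all genes whose symbol starts with Clec and a digit or with Klr and a letter from a to k, plus Mgl2, on probe sets that carry a single gene symbol. This gave 57 of 19938 genes on the array, from 58 probe sets, of which 17 were myeloid lectins, 23 Klr receptors, 8 members of the Clec2 family and 9 other lectins. Clec4g alone had 2 probe sets, and the brighter was used.

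C-type lectin receptors share a fold that in many of them binds sugars in a calcium-dependent way. Myeloid cells carry several of them to sense fungi, mycobacteria and dying cells, either through the adaptors Fcer1g or Tyrobp and the kinase Syk, or with inhibitory motifs of their own that recruit the phosphatases Ptpn6 and Ptpn11. The Klr receptors use the same fold to read MHC class I-like proteins, stress-induced ligands or Clec2 proteins, and are best known from natural killer (NK) cells and some T cells.

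All cells came from C57BL/6 mice. LMPPs are multipotent progenitors of bone marrow, with lymphoid and myeloid potential, sorted as lineage-negative, Sca1-positive, Kit-positive and Flt3-high cells. A pool of them was measured on 1 array after 48 hours with the cytokines of the transduction medium and without a retrovirus, as far as stated. The Tcf1 group (2 arrays, labelled as biological replicates) came from LMPPs given a Tcf1-VEX retrovirus and grown on the stromal line OP9 with IL7 and Flt3 ligand. The control group (1 array) came from LMPPs given the empty VEX vector and grown on OP9-DL4, the same stroma with the Notch ligand DL4. The same 48 hours of stimulation are given for both cultured groups. Both were sorted on day 10 as live CD45.2-positive, Mac1-negative, Gr1-negative, Thy1-positive and CD25-positive cells. Vector and stroma changed together between Tcf1 and control cells. Time, stroma, gate and, as far as stated, retrovirus changed together between either of them and the LMPPs. Within each comparison these cannot be told apart. Values are log2 signals (RMA) of bulk RNA, in which a smaller share of cells with a transcript and less of it per cell cannot be told apart.

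The labels were checked with marker genes. Thy1 read 8.13 (LMPP), 12.38 and 12.53 (Tcf1) and 12.98 (control), and Il2ra, which encodes CD25, read 6.88, 12.91, 12.99 and 13.64. Cd3g was at 6.48 and 6.64 in the Tcf1 arrays, and the control array was higher (Tcf1 minus control -6.44). The Tcf7 transgene was not analysed here. The arrays' medians over genes ran from 7.47 to 7.59. Precision is limited by there being 4 arrays.

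Several myeloid lectins were higher in Tcf1 cells than in both other cell types, while most Klr receptors were dim throughout. Against LMPPs, 5 of 57 members were higher and 0 were lower (limma, Benjamini-Hochberg adjusted p under 0.05 over all genes). That is 8.77% higher, where 1.75% of all genes tested were higher and 1.31% lower. At an unadjusted p under 0.05, 13 members were higher and 0 lower, where 5.33% of all genes were higher and 9.22% lower. The 5 were Mgl2, Clec10a, Clec4a1, Clec4a3 and Clec2d. Against control cells, 8 members (14.0%) were higher and 0 were lower in limma, where 1.9% of all genes were higher and 2.49% lower, and 18 were higher and 1 lower at an unadjusted p under 0.05, where 5.72% and 8.37% of all genes were. The 8 past the adjusted threshold were Mgl2, Clec10a, Clec4a1, Clec4a3, Clec4a2, Clec4d, Clec5a and Klrd1. Only the Tcf1 pair informed the spread (1 residual degree of freedom). It was moderated towards that of all genes and assumed for the unreplicated groups too. No member passed when all 35399 probe sets were fitted together or when the variances were not moderated.

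**Figure D1:**
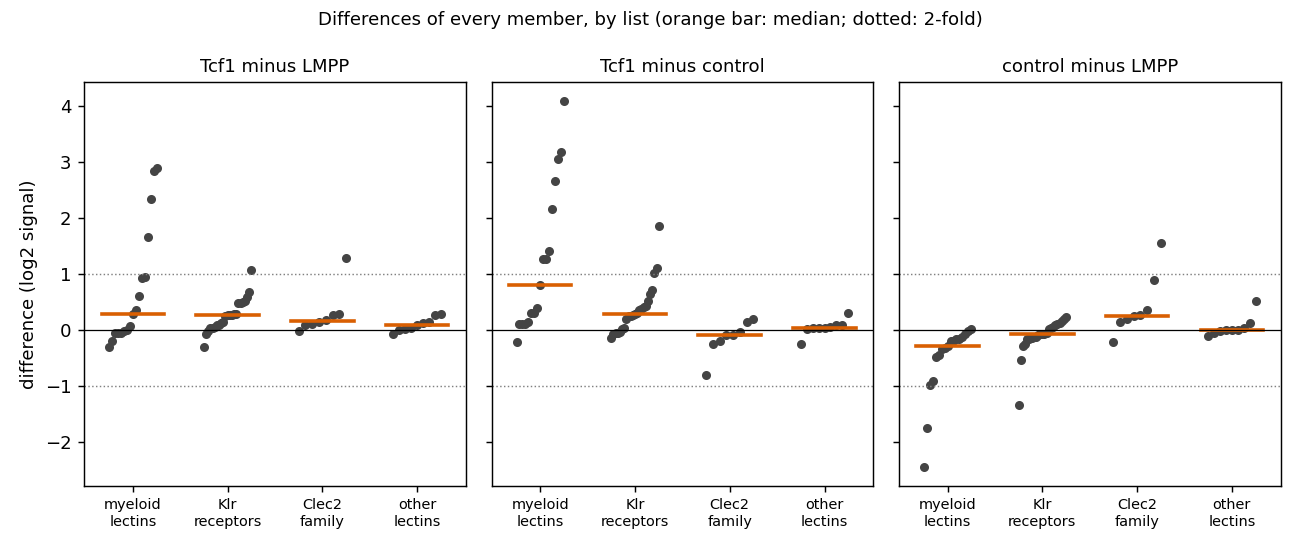
Difference in log2 signal of each of the 57 members (points, sorted within a list) for Tcf1 minus LMPP, Tcf1 minus control and control minus LMPP; orange bars are list medians and dotted lines mark 2-fold. The myeloid lectins spread furthest upward in both Tcf1 panels, with medians of 0.28 and 0.80, and downward in the third, with a median of -0.29.

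Mgl2 and Clec10a encode the galactose-type lectins of macrophages and dendritic cells, and are neighbours on chromosome 11. Mgl2 read 7.74 in LMPPs, 10.15 and 10.0 in Tcf1 cells and 5.98 in control cells. Both Tcf1 arrays thus lay above both single arrays, and the LMPP array lay between them and the control array. Mgl2 rose 5.06-fold from LMPPs to Tcf1 cells, a log2 difference of 2.34 (SE 0.17, limma adjusted p = 0.0011). It was 17.1-fold higher than in control cells, a difference of 4.10 (SE 0.17, limma adjusted p = 1.7e-04). Clec10a followed the same order of arrays, at 6.42 in LMPPs, 8.05 and 8.13 in Tcf1 cells and 5.43 in control cells. Its differences were 1.67 against LMPPs (SE 0.16, limma adjusted p = 0.0032) and 2.66 against control cells (SE 0.16, limma adjusted p = 4.8e-04). From LMPPs to control cells, with 1 array each and no test, Mgl2 differed by -1.76 and Clec10a by -0.99.

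Clec4a1 and Clec4a3 belong to the DCIR group of dendritic cell and monocyte lectins. Clec4a1 read 5.73 in LMPPs, 8.09 and 9.17 in Tcf1 cells and 5.44 in control cells. The Tcf1 arrays were 1.08 apart, the widest gap between replicates among the members, and both were above the single arrays. Clec4a1 rose 7.45-fold over LMPPs (log2 difference 2.90, SE 0.39, limma adjusted p = 0.0122) and was 9.12-fold higher than in control cells (3.19, SE 0.39, limma adjusted p = 0.00659). Clec4a3 was at 5.73 in LMPPs, at 8.26 and 8.91 in Tcf1 cells and at 5.52 in control cells. It rose 7.23-fold over LMPPs (2.85, SE 0.27, limma adjusted p = 0.00276) and was 8.33-fold higher than in control cells (3.06, SE 0.27, limma adjusted p = 0.00184). Control minus LMPP differences of both genes were small beside that of Mgl2, at -0.29 and -0.20.

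Clec4a2, which encodes the inhibitory receptor DCIR itself, followed at a smaller size, with 5.71 in LMPPs, 6.41 and 6.90 in Tcf1 cells and 5.24 in control cells. It passed against control cells (1.42, SE 0.23, limma adjusted p = 0.0188) and not against LMPPs (0.94, limma adjusted p = 0.0956), where it passed with the arrays centred and with a trended prior. Clec4d, a receptor for mycobacterial glycolipid, was just past the threshold against control cells (0.80, SE 0.17, limma adjusted p = 0.0484), with 7.26 in LMPPs, 7.79 and 7.92 in Tcf1 cells and 7.06 in control cells. Its partner Clec4e (Mincle) read 9.71, 9.99, 10.0 and 9.69 in LMPP, Tcf1 replicate 1, Tcf1 replicate 2 and control arrays, a difference of 0.30 against control cells that did not pass. Clec4n (Dectin-2), a fungal mannan receptor, was at 6.12 in LMPPs, 6.64 and 7.44 in Tcf1 cells and 5.78 in control cells, 2.39-fold above control cells without passing (limma adjusted p = 0.0854). That difference passed with the arrays centred, after the filter on dim genes and with a trended prior, and the one from LMPPs (0.92) passed after the filter.

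These Clec4 genes lie side by side on chromosome 6, where genes that passed lie next to genes that did not. In the order of the RefSeq gene table, the 9 genes of the cluster are Clec4a1, Clec4a3, Clec4a4, Clec4b1, Clec4a2, Clec4b2, Clec4n, Clec4d and Clec4e. Clec4a4 and Clec4b1, which follow directly on Clec4a3, differed by 0.07 and -0.01 against LMPPs and by 0.14 and 0.11 against control cells. Both probe sets read below the 5th percentile of genes on every array, so no difference was detectable at this signal.

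**Figure D2:**
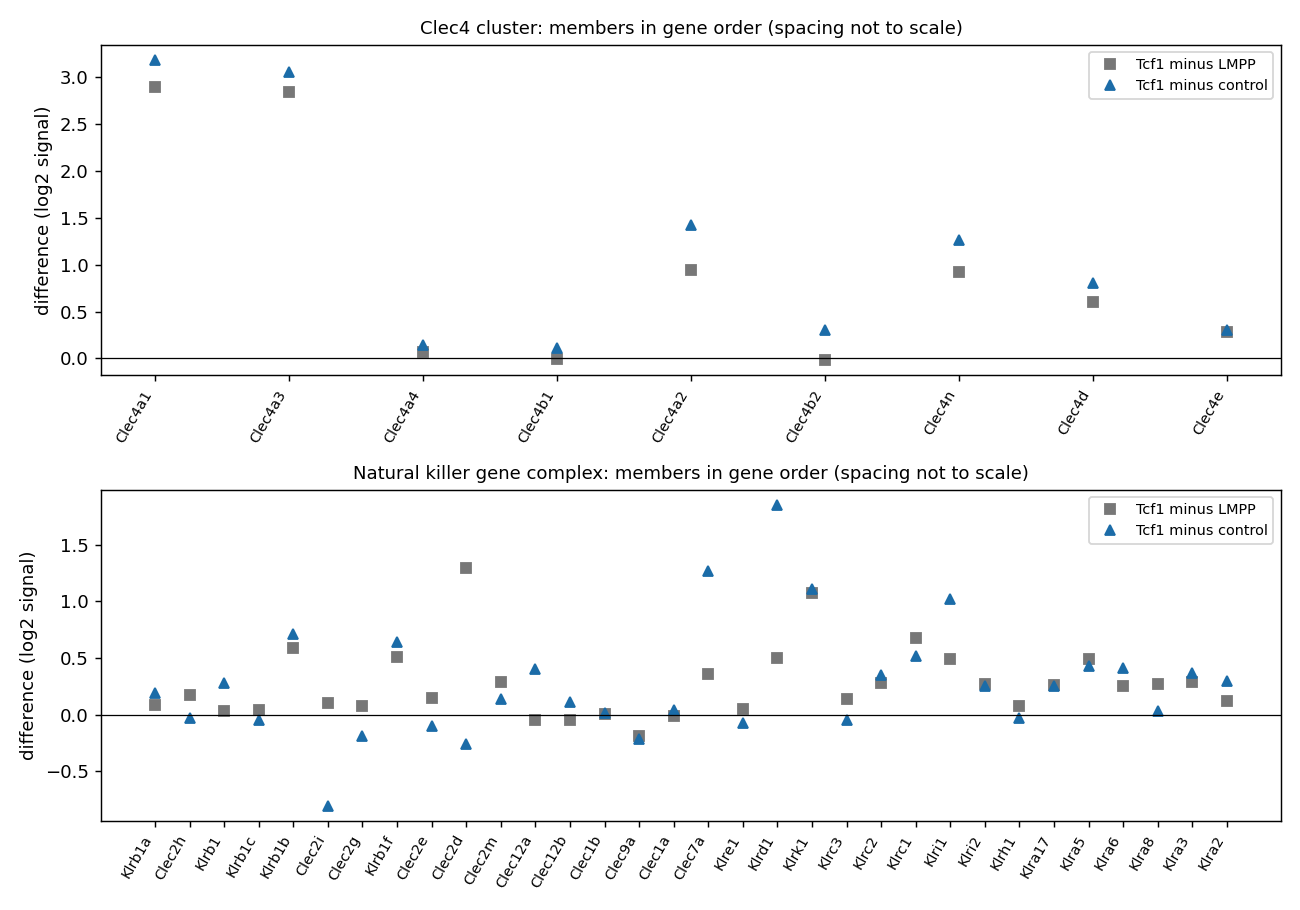
Log2 difference of Tcf1 cells from LMPPs (squares) and from control cells (triangles) for the members of the Clec4 cluster (9 genes, top) and of the natural killer gene complex (32 genes, bottom), in gene order along chromosome 6 with spacing not to scale. Clec4a1 and Clec4a3 stand near 3 in both comparisons, beside Clec4a4 and Clec4b1 near 0, and Klrd1 stands at 1.85 against control cells and 0.50 against LMPPs.

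Of the 55 members with a place in that table, 46 lie on chromosome 6. The promoter windows of Clec4a1 and Clec4a3, which rose, of their neighbour Clec4b1, which did not pass, and of Mgl2 and Clec5a, which were higher than in control cells, are shown to compare their letters (RefSeq, GRCm38.p6, 250 bases before to 50 after the start, first start listed per gene). Capitals mark GAGGAA, a PU.1-type sequence whose reverse complement is TTCCTC. They also mark CTTTGA, a Tcf/Lef-type sequence whose reverse complement is TCAAAG.
Clec4a1, chr6:122921598-122921897, + strand: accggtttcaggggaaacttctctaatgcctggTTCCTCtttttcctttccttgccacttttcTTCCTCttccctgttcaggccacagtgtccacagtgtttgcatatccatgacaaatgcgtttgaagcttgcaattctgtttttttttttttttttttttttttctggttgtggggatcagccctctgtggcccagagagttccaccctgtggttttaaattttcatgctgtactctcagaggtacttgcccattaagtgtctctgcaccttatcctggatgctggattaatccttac
Clec4a3, chr6:122952265-122952564, + strand: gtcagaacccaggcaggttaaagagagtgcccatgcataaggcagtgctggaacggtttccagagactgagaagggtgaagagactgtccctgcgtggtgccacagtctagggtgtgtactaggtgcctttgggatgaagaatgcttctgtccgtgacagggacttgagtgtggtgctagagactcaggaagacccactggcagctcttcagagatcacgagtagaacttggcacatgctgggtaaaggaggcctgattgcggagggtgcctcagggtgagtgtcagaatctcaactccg
Clec4b1, chr6:123049712-123050011, + strand: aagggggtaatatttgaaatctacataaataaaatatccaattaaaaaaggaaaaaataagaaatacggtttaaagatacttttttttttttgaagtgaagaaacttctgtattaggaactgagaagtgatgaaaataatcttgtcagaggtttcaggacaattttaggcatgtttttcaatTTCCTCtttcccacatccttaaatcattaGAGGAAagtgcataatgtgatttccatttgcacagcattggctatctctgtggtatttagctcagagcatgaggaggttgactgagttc
Mgl2, chr11:70130107-70130406, + strand: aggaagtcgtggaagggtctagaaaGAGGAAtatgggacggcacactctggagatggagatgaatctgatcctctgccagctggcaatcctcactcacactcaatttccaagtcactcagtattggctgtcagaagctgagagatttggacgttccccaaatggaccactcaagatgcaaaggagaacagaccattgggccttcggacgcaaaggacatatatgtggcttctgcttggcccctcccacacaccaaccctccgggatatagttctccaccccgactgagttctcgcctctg
Clec5a, chr6:40585756-40586055, - strand: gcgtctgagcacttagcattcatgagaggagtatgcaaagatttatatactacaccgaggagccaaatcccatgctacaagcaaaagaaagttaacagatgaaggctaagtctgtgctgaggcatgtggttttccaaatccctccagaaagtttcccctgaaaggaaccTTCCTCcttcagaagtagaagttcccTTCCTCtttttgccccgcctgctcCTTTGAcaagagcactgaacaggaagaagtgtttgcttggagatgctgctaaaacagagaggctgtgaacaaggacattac
GAGGAA stood in the windows of Clec4a1, Clec4b1, Mgl2 and Clec5a and CTTTGA in that of Clec5a. Neither stood in the window of Clec4a3. Over the 46 members with a window, 27 (58.7%) held GAGGAA and 10 (21.7%) held CTTTGA, where 28.3% and 16.2% of the windows of 27025 genes did. The C/EBP-type TTGCNNAA and the Runx-type TGTGGT, searched on both strands as well, were each in 13 member windows (28.3%), against 10.8% and 16.9% of all. Of the 7 windows of members that passed in either comparison, 4 held GAGGAA, 3 CTTTGA, 0 TTGCNNAA and 3 TGTGGT. A relation of these letters to the differences in signal was not tested. Many members are copies of each other, so their windows are not independent, and a match of letters is not a bound site.

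Clec5a, a Tyrobp-coupled receptor of monocytes and neutrophils, showed another pattern, in which the control array alone was low. It read 8.24 in LMPPs, 7.92 and 7.96 in Tcf1 cells and 5.78 in control cells. The difference of 2.16 from control cells (SE 0.16, 4.45-fold) passed (limma adjusted p = 9.4e-04), and that of -0.30 from LMPPs (SE 0.16) did not (limma adjusted p = 0.502). Between the single arrays Clec5a was 5.48-fold higher in LMPPs than in control cells, the widest gap among the members in that comparison.

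Clec7a (Dectin-1), the receptor for fungal beta-glucan, depended on the replicate, with 6.96 in LMPPs, 6.87 and 7.77 in Tcf1 cells and 6.05 in control cells. Replicate 1 lay just under the LMPP array and replicate 2 above it, and neither difference passed (0.36 against LMPPs and 1.27 against control cells, limma adjusted p = 0.787 and 0.109). The difference from control cells passed with the arrays centred, after the filter on dim genes and with a trended prior. Clec12a, an inhibitory receptor for uric acid crystals, lay close together on the arrays, with 11.14 in LMPPs, 11.08 and 11.09 in Tcf1 cells and 10.69 in control cells (-0.05 against LMPPs and 0.40 against control cells, neither passed). Clec9a, a receptor for dead cells on cross-presenting dendritic cells, read between 5.24 and 5.54 on all arrays, below the 25th percentile of genes.

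**Figure D3:**
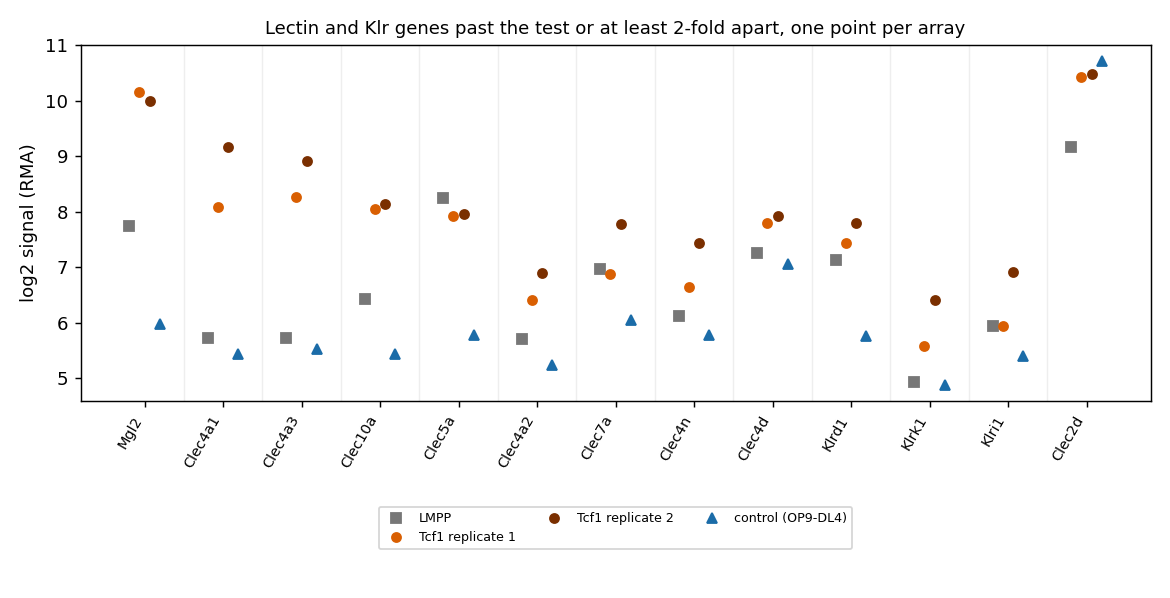
Log2 signal on each array (square, LMPP; circles, the Tcf1 replicates; triangle, control) for the 13 members that passed the test or were at least 2-fold apart in a comparison. Both Tcf1 circles lie above both other symbols for Mgl2, Clec4a1, Clec4a3, Clec10a, Clec4a2, Clec4d, Clec4n, Klrd1 and Klrk1. For Klri1 the replicate 1 circle is level with the LMPP square at 5.94. Clec5a has the control triangle alone at 5.78 and Clec2d has the LMPP square alone at 9.17.

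As a list, the 17 myeloid lectins measured (Clec6a of the list has no entry) had 4 higher and 0 lower against LMPPs and 7 higher and 0 lower against control cells in limma, where 1.75% and 1.9% of all genes were higher. At an unadjusted p under 0.05, 7 and 10 were higher and 0 lower in either, where 5.33% and 5.72% of all genes were higher. Their median differences were 0.28 and 0.80, where the medians of all genes were 0 and 0.02. Without Tcf1 replicate 2 the median against LMPPs was 0.06. Both Tcf1 arrays lay above the control array for 16 of the 17 and below it for Clec9a, where 38.6% of all genes had both above and 34.2% both below. Against LMPPs both were above for 9 of 17 and below for 6, where 35.8% and 36.8% of all genes were. At least 2-fold above control cells were 11 of all 57 members and 0 were as far below, where 1.78% and 2.02% of all genes were, and without Tcf1 replicate 2 the 11 were 7. At least 2-fold above LMPPs were 6 members and 0 were as far below, where 1.79% and 1.11% of all genes were.

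Of the 23 Klr receptors measured, 0 passed against LMPPs in limma (5 higher and 0 lower at an unadjusted p under 0.05), and Klrd1 alone passed against control cells (8 higher and 0 lower unadjusted). Over all genes, 1.75% and 1.9% were higher past the adjusted threshold and 5.33% and 5.72% unadjusted. With the arrays centred or with a trended variance prior, Klrc1 passed against LMPPs and Klrk1 in both comparisons. Against control cells, Klrb1b passed after the filter on dim genes and Klrb1f with the trended prior. In 17 of the 23, all 4 arrays were below the 25th percentile of genes, and in 5 of them below the 5th. Their medians were 0.26 against LMPPs and 0.28 against control cells, and -0.08 for control minus LMPP. Both Tcf1 arrays lay above the LMPP array for 18 of the 23 and below it for 1, where 35.8% and 36.8% of all genes did. Against the control array, 16 had both above and 3 both below, where 38.6% and 34.2% of all genes did.

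Klrd1 encodes CD94, the shared chain that pairs with the NKG2 receptors to read the MHC class I-like protein Qa1. It read 7.12 in LMPPs, 7.44 and 7.80 in Tcf1 cells and 5.76 in control cells. Klrd1 was 3.61-fold higher in Tcf1 than in control cells (1.85, SE 0.20, limma adjusted p = 0.00413), while the difference of 0.50 from LMPPs did not pass (limma adjusted p = 0.315). LMPPs were 2.56-fold above control cells, without a test.

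Chains of the NKG2 family pair with CD94. Klrc1, which encodes the inhibitory NKG2A, read 5.11 in LMPPs, 5.70 and 5.89 in Tcf1 cells and 5.27 in control cells, below the 25th percentile on all of them (0.68 against LMPPs, limma adjusted p = 0.107). Klrc2 lay between 5.43 and 5.79 and Klrc3 between 4.07 and 4.26. Klrk1, the activating receptor NKG2D for stress-induced ligands, read 4.92 in LMPPs, 5.57 and 6.41 in Tcf1 cells and 4.88 in control cells. Both Tcf1 arrays were above the single arrays, but their gap of 0.84 was wide, and the 2.09-fold and 2.16-fold differences did not pass (limma adjusted p = 0.171 and 0.142), except with centring or the trended prior, as above.

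The Nkrp1 family includes Klrb1f, a receptor for Clec2 proteins. It read 11.10 in LMPPs, 11.38 and 11.84 in Tcf1 cells and 10.97 in control cells (0.51 and 0.64, neither passed). Klrb1b, the inhibitory receptor for the Clec2d protein, read 6.76, 7.15, 7.56 and 6.65 in the same order (0.59 and 0.71, neither passed). For both genes the Tcf1 arrays lay above both single arrays. Klrb1c, which encodes the NK cell marker NK1.1 of C57BL/6 mice, lay between 4.67 and 4.82 on all arrays, with differences of 0.04 and -0.05. All 4 arrays were below the 25th percentile of genes and 1 below the 5th, so a difference may not be detectable at this signal.

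The Ly49 family (Klra genes), receptors for classical MHC class I, was dim on every array. Its 6 members with a probe set of their own had 4.2 as the lowest and 5.56 as the highest signal, all below the 25th percentile. Klra8, which encodes the activating receptor Ly49H, read 4.89, 5.32, 5.01 and 5.13 in LMPP, Tcf1 replicate 1, Tcf1 replicate 2 and control arrays, so the control array lay between the Tcf1 arrays. Klri1, which forms receptors with the Klre1 protein, differed between the Tcf1 replicates by 0.96 (5.94 and 6.91, with 5.94 in LMPPs and 5.40 in control cells), and Klre1 itself lay between 4.22 and 4.34. Klrg1, an inhibitory receptor for cadherins, read 5.58 in LMPPs, 5.78 and 5.35 in Tcf1 cells and 5.29 in control cells, with the LMPP array between the Tcf1 arrays and the control array just below them.

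**Figure D4:**
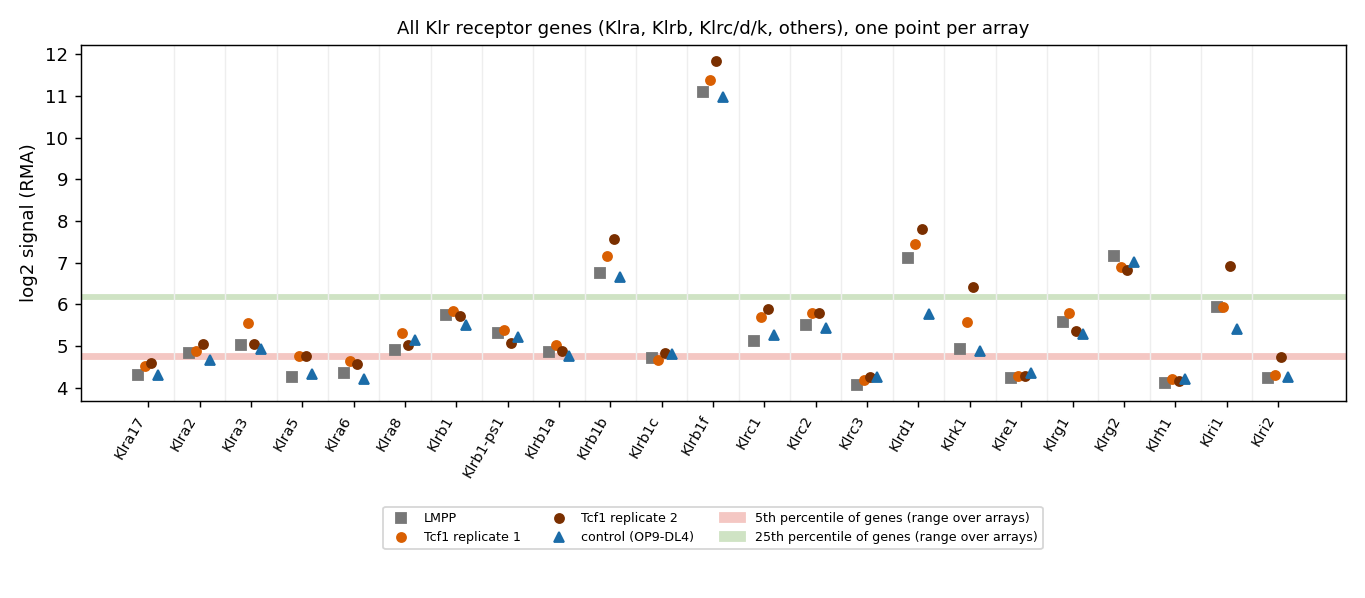
Log2 signal of the 23 Klr receptor genes on each array (square, LMPP; circles, the Tcf1 replicates; triangle, control), grouped as Klra, Klrb, the Klrc, Klrd and Klrk genes, and the others; bands mark the range over arrays of the 5th and 25th percentiles of all genes. In 17 genes all points lie below the upper band, and Klrd1 shows the control array alone at 5.76.

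The Clec2 family holds ligands of the Nkrp1 receptors. Clec2d, the ligand of Klrb1b, was the only one of the 8 that passed in either comparison. It read 9.17 in LMPPs, 10.42 and 10.49 in Tcf1 cells and 10.72 in control cells. Clec2d rose 2.44-fold from LMPPs to Tcf1 cells (1.29, SE 0.16, limma adjusted p = 0.00919), was 2.92-fold above LMPPs in control cells, without a test, and differed by -0.26 between Tcf1 and control cells (SE 0.16, limma adjusted p = 0.621). Clec2d was therefore high in both groups cultured to day 10.

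Clec2i, a ligand of Klrb1f, had its highest signal in the control array. Its signals were 10.41 in LMPPs, 10.43 and 10.60 in Tcf1 cells and 11.31 in control cells, a Tcf1 minus control difference of -0.80 (SE 0.17) just short of the threshold (limma adjusted p = 0.0532). It passed with the arrays centred, quantile normalized or filtered for dim genes, with probe sets averaged and with a trended prior. No Clec2 gene passed against control cells in the reported fit. At an unadjusted p under 0.05, 0 were higher and 1 lower, where 5.72% of all genes were higher and 8.37% lower. The family median was 0.16 against LMPPs and -0.10 against control cells. Both Tcf1 arrays lay above the LMPP array for 7 of the 8 genes and below it for 0, where 35.8% and 36.8% of all genes did. Against the control array, 2 had both above and 6 both below, where 38.6% and 34.2% of all genes did. Apart from Clec2d and Clec2i, the members of the family differed by at most 0.29 in either direction in both comparisons.

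None of the 9 other lectins passed in either comparison in limma, and none had an unadjusted p under 0.05. Of all genes, 1.75% were higher and 1.31% lower than in LMPPs (5.33% and 9.22% unadjusted). Against control cells the shares were 1.9% and 2.49% (5.72% and 8.37% unadjusted). Differences of the 9 other lectins ran from -0.07 to 0.28 against LMPPs and from -0.26 to 0.30 against control cells. They include Clec1b, the podoplanin receptor of platelets, which read between 5.07 and 5.15, Clec14a of endothelium, between 5.64 and 5.70, and Clec11a, a secreted growth factor of bone and progenitors, which read 7.66 in LMPPs, 7.84 and 8.04 in Tcf1 cells and 7.63 in control cells. Clec16a, a protein of endosomal trafficking that carries the name without being a typical receptor, was 0.51 higher in the control than in the LMPP array.

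From LMPPs to control cells, with 1 array each and no test, 1 member was at least 2-fold higher and 3 were lower, where 3.17% of all genes were higher and 2.36% lower. Clec2d was the one that was higher, and Clec5a, Mgl2 and Klrd1 were lower. Of the 17 myeloid lectins, 16 read lower in the control array, where 10507 of all 19938 genes did. Clec9a (0.02) was the exception, and the median was -0.29 (all genes -0.01). Some of the 16 barely differed, such as Clec4e (-0.02), and Clec4a4 and Clec4b1 were below the 5th percentile of genes on every array.

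Adaptors and signalling proteins of these receptors were measured for 14 of 15 genes. Against LMPPs 0 passed in limma, with 2 higher and 2 lower at an unadjusted p under 0.05, and against control cells 3 were higher and 0 lower (1 lower unadjusted). Of all genes, 1.75% were higher and 1.31% lower than in LMPPs (5.33% and 9.22% unadjusted). Against control cells the shares were 1.9% and 2.49% (5.72% and 8.37% unadjusted). Tyrobp, the adaptor DAP12, read 11.39 in LMPPs, 11.80 and 11.94 in Tcf1 cells and 10.01 in control cells, 3.64-fold higher in Tcf1 than in control cells (1.86, SE 0.17, limma adjusted p = 0.00195). Card9, which passes on signals from Dectin receptors, was at 9.33, 8.72, 9.01 and 7.24 in the same order (1.62 against control cells, limma adjusted p = 0.00507). Prkcd, the kinase between Syk and Card9, was 0.83 higher than in control cells (limma adjusted p = 0.0422). Fcer1g differed from control cells by 0 (SE 0.19), Syk by -0.11 and Hcst, the adaptor of NKG2D, by -0.50, none of which passed. Tyrobp and Card9 thus had their lowest array in control cells, as had Bcl10, Malt1 and Ptpn6 of the same list. The differences of Bcl10, Malt1 and Ptpn6 from control cells did not pass.

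Only 4 of 13 listed ligands of Klr receptors had a probe set of their own, and H2-T23 and Ulbp1 are not analysed here. Cdh1, E-cadherin, a ligand of the Klrg1 protein, was lower in Tcf1 than in control cells by 2.39 on the log2 scale (-2.39, SE 0.18, limma adjusted p = 9.8e-04), with 7.57 and 7.82 against 10.09, and read 8.48 in LMPPs. Cdh2, N-cadherin, another ligand of it, read 5.76 in LMPPs, 6.11 and 6.59 in Tcf1 cells and 5.64 in control cells (0.59 and 0.71, limma adjusted p = 0.29 and 0.186). Raet1d, a ligand of NKG2D, lay between 4.94 and 5.35, and H60b between 4.84 and 5.17.

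Markers of other cell types were read as well. For all marker counts below, 1.75% of all genes were higher and 1.31% lower than in LMPPs (5.33% and 9.22% unadjusted). Against control cells the shares were 1.9% and 2.49% (5.72% and 8.37% unadjusted). Of 14 macrophage and monocyte markers, 4 were higher and 1 was lower in Tcf1 cells than in LMPPs, and 8 were higher and 0 lower than in control cells (12 higher and 0 lower unadjusted). Their mean log2 signal was 7.82 in LMPPs, 8.45 and 8.70 in the Tcf1 arrays and 6.68 in the control array. Adgre1 (F4/80) had 11.10 and 11.43 in Tcf1 cells against 6.89 in LMPPs and 6.51 in control cells, whereas Csf1r read 9.15 and 9.54 against 9.19 and 7.53, and Cd163 was below the 25th percentile on all arrays. Mpeg1, the marker lower than in LMPPs, read 10.43 in LMPPs, 8.93 and 9.12 in Tcf1 cells and 5.63 in control cells. Itgam, which encodes the gated Mac1, read 8.25 in LMPPs, 7.44 and 7.70 in Tcf1 cells and 7.03 in control cells, and did not pass. Whether macrophages or monocytes had a part in the lectin differences was not tested.

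Of 10 neutrophil markers, 1 was higher and 5 were lower than in LMPPs, and 3 were higher than in control cells. The marker higher than in LMPPs, Mmp8, read 7.58 in LMPPs, 10.15 and 10.09 in Tcf1 cells and 5.13 in control cells. Means of the 10 were 8.34 (LMPP), 7.58 and 7.56 (Tcf1) and 6.55 (control). Ly6g, which carries the Gr1 epitope, was below the 25th percentile on all arrays. Of 9 dendritic cell markers, 0 passed against LMPPs in limma (2 lower unadjusted) and 3 were higher than in control cells, with means of 8.33, 7.86, 8.35 and 6.53 in the same order. Those 3, Cd74, H2-Aa and H2-Ab1, were at least 1.14 higher in Tcf1 replicate 2 than in replicate 1, as were Clec4a1, Clec7a, Klri1, Klrk1 and Clec4n by 0.80 to 1.08. Of 14 NK cell markers, Gzmb, Il2rb, Ccl5 and Itga2 were higher and Eomes and Cd244a lower than in LMPPs, and Ncr1, the NK cell receptor NKp46, was below the 25th percentile on all arrays. Against control cells 2 were higher and 2 lower, among the latter Gzma at 7.89 and 7.94 against 11.82. NK marker means were 7.69, 8.0, 8.31 and 8.21 in the same order. Of 6 stromal markers, Bgn was higher in Tcf1 cells in both comparisons, and Pdgfrb was lower than in control cells.

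Of 3 progenitor markers, Flt3 and Cd34 had their lowest signal in the control array. Flt3 read 11.91 in LMPPs, 10.97 and 11.03 in Tcf1 cells and 6.75 in control cells, and Cd34 read 12.67, 12.76, 12.86 and 8.91 in the same order. Both were higher in Tcf1 than in control cells (18.9-fold and 14.9-fold, limma adjusted p = 1.7e-04 for each). Against LMPPs, Flt3 was lower in Tcf1 cells (-0.91, limma adjusted p = 0.0339) and Cd34 did not pass (0.14). Kit was lowest in the LMPP array, and its difference of -0.17 from control cells did not pass. Of 9 T lineage markers, 6 were higher and 0 lower than in LMPPs, and 0 were higher and 5 lower than in control cells. Whether any of these cell types had a part in the differences of the members was not tested.

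The Tcf1 replicates differed more over the members than over all genes. They were at least 0.5 apart in 7 of 57 members (12.3%), where 4.63% of all genes were. Among these 7, replicate 2 was higher for Clec4a1, Klri1, Clec7a, Klrk1, Clec4n and Clec4a3, and replicate 1 was higher for Klra3 (5.56 against 5.04).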

How the data were processed

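RNA of 4 samples was hybridised to Affymetrix whole-transcript arrays. The authors deposited log2 signals per probe set; RMA and Partek 6.5 are named in the submitters' processing notes. Log base 2 was inferred from RMA and the range; parameters and genome build are not given in the sources used here.

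Of 35399 probe sets, 21789 carried 1 gene symbol, 1621 several and 11989 none. Of the single symbols, 21698 matched the RefSeq gene table and 0 were renamed. The probe set with the highest mean was taken for each of 19938 genes. Group means were fitted over all genes and arrays with limma 3.58.1 in R 4.3.3 (1 residual and 5.78 prior degrees of freedom, prior SD 0.141), with Benjamini-Hochberg adjustment and a threshold of 0.05. SEs and p-values rest on the spread of the gene's Tcf1 pair, drawn towards a prior from the Tcf1 pairs of all genes. The prior had the larger weight (5.78 against 1 degrees of freedom). An SE is therefore not the gene's own replicate spread. Control against LMPP, 1 array each, had no test. On simulated data with 19938 genes, 48.5% of 2-fold and 99.6% of 4-fold changes were recovered for Tcf1 against LMPP, with 9.41% false calls, and 44.0%, 99.3% and 8.09% against control. Both shares of false calls were above the threshold of 0.05. The simulation changed 200 genes per draw and took spreads from the fitted prior, equal in all groups. It therefore could not show the effect of a different spread in the unreplicated groups.

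Members with values in the text passed the test, were at least 2-fold apart or stood on a fixed list of 18 receptors; others were chosen after their values were seen. Members and lists were chosen with earlier results of these data known. Alternatives were other scalings, a filter on dim genes, other probe set rules, other variance models and 1 Tcf1 array left out. No scanner files were used here, so background correction and slides were not varied.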

Additional observations from a re-analysis of the deposited data

Results flagged for a closer look

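A probe set outside the comparisons, shared by Klra9, Klra5 and Klra3 and so without a single name, read 5.55 in Tcf1 replicate 1 against 4.52 in the control array, 1.03 apart; it read 4.73 in Tcf1 replicate 2 and 4.75 in LMPPs. It was picked out because its highest Tcf1 signal was at least 2-fold above the control array.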

How the results depend on the processing

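No paired analysis was possible because LMPP and control cells had 1 array each and no replicate numbers. Calls against LMPPs numbered 8 after median centring and 8 with a trended prior, and those against control cells 13 with the trended prior, in place of 5 and 8; all 5 and all 8 were kept there. With all probe sets fitted together, or with unmoderated variances, 0 were called in either comparison (9 and 13, or 6 and 8, members at an unadjusted p under 0.05). Over all genes, 610 calls against LMPPs became 1456 after centring, 936 with the trend, 1196 after the filter on dim genes, 12 unmoderated and 0 over all probe sets, and 874 against control cells became 1646, 1237, 1437, 12 and 0. The cause of these shifts was not tested.

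Leaving out a Tcf1 replicate gave 5 to 8 members at least 2-fold from LMPPs and 7 to 11 from control cells. The Klr median was then 0.19 to 0.21 against LMPPs and 0.28 to 0.33 against control cells, and the myeloid median 0.06 to 0.29 and 0.73 to 0.87. The Klr median against LMPPs was 0.22 after centring, 0.21 after quantile normalization and 0.50 over the 4 Klr genes left by the filter on dim genes. Against control cells it was 0.24, 0.22 and 0.67, and for control against LMPPs -0.06 after quantile normalization and -0.14 after the filter. The 11 myeloid lectins left by that filter had medians of 0.60 and 1.27. Signs turned for Klra8 against control cells (-0.01 after centring, -0.05 after quantile normalization) and, after quantile normalization, for Clec12a (0.05) and Klrb1c (0) against LMPPs, all near 0. Depth is limited by signal over background: 27 of 57 members were below the 25th percentile on every array.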
